A study of Glycine max with 2 samples.

Results

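The sieve element occlusion (SEO) genes of soybean were measured in seedlings given salt or water, on Affymetrix Soybean Genome Arrays. Members were all soybean probe sets whose single annotated gene symbol is SEO followed by 1 letter. The rule gave 9 probe sets for 7 genes, out of 6031 genes with a single annotated symbol. They were SEOA, SEOC, SEOE, SEOF, SEOM, SEOP and SEOS. Both groups were seedlings of the soybean cultivar Williams 82, 14 days old, kept in vermiculite at 25 °C under a 16 h day. The salinity group received 150 mM NaCl and the mock group received water alone. The labels list treatment times of 1, 3, 6, 12 and 24 h, and the RNA of these times was pooled within each group. The design text also lists 0 h, so it is not settled whether the pools hold RNA of that time. Each pool was hybridised to 1 array, so no test was possible, and every difference given here describes 2 arrays and not a spread between plants. The labels do not name the organs that were taken.

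Sieve elements are the conducting cells of the phloem, which carry sugars from source leaves to growing and storing organs. They lose their nucleus as they mature, so proteins that they make themselves come from RNA that accumulates earlier, while the cell differentiates. SEO genes encode structural phloem proteins (P-proteins) of these cells. In legumes, members of the family build forisomes, spindle-shaped protein bodies that swell in response to calcium and can plug a sieve tube after injury. In other plants, such as Arabidopsis, SEO proteins form the filaments and plugs long seen in sieve tubes. The RefSeq gene table of soybean lists 19 genes with SEO symbols, 15 with a single letter and 4 with the suffix F and a number, which stands for forisome. Of these, 8 of the 15 and 3 of the 4 have no singly annotated probe set here and were not analysed. The remaining forisome gene, SEO-F3, does not match the rule and is given beside the members as a gene of the same family.

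All 7 SEO genes had a lower signal on the salinity array than on the mock array. SEOA was lowest at 2.67-fold, and SEOF, SEOE, SEOM and SEOP lay between 1.48-fold and 1.74-fold lower. SEOS, whose value is a limit, was at least 1.57-fold lower. SEOC was nearly level, 1.13-fold lower. The median log2 ratio of salinity over mock was -0.65, which is the limit for SEOS itself, beside a median of -0.0033 over all 5892 measured genes. Over the 6 members that both arrays measured it was -0.66, and over all 7 it was -0.69 with SEOS at its deposited values, both chosen after seeing the data. A gene counted as measured when either array gave a signal over its background bound, and its brightest probe set stood for it. Probe sets for other organisms on the same arrays set these bounds, log2 signals of 4.88 (salinity) and 4.94 (mock). Every SEO gene was measured, 6 on both arrays and SEOS on the mock array alone.

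SEOA showed the widest difference. Its bright probe set had a signal of 1215 (salinity) and 3246 (mock), log2 signals of 10.25 and 11.66 and a log2 ratio of -1.42. It was the one member past the fixed rule of at least 2-fold. A second probe set annotated to SEOA lay below the bound on both arrays, with log2 signals of 1.41 (salinity) and 4.04 (mock). That set gives no ratio, so the SEOA value rests on 1 probe set.

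SEOF, which lies directly beside SEO-F3 in the gene order of the RefSeq table, came next among the 6 members measured on both arrays. It had signals of 1779 (salinity) and 3102 (mock), log2 signals of 10.80 and 11.60 and a log2 ratio of -0.80. The forisome gene SEO-F3 had a log2 ratio of -0.82 by its brighter set, with signals of 1037 (salinity) and 1830 (mock). Its other set gave -0.83, with signals of 436 (salinity) and 775 (mock). The sets of SEO-F3 thus differed by 0.010 in log2 ratio, and this gene and its neighbour SEOF were lower by about the same amount. Whether probes of one could bind RNA of the other was not tested.

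Close behind came SEOE, SEOM and SEOP. SEOE had signals of 160.0 (salinity) and 257 (mock) by its brighter set, a log2 ratio of -0.69. Its other set had 121 (salinity) and 158 (mock), a log2 ratio of -0.39, so both sets were lower on the salinity array and differed by 0.29. SEOM had 163 (salinity) and 255 (mock), a log2 ratio of -0.64. SEOP, whose neighbour in the gene order is SEOO, had 151 (salinity) and 224 (mock), a log2 ratio of -0.57. All 3 were lower on the salinity array by less than 2-fold, at a similar ratio.

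The member nearest to its background bound was SEOS, and the member with the smallest difference was SEOC. SEOS, which neighbours SEOR, had a log2 signal of 5.53 on the mock array, close to the bound, and 4.63 on the salinity array, below it. Its ratio is therefore a limit, at least 1.57-fold lower, and the deposited values themselves gave a log2 difference of -0.90, which would put it below SEOF. SEOS therefore has no place in the order of the members. SEOC, by contrast, was well above the bound, with signals of 1168 (salinity) and 1321 (mock) and a log2 ratio of -0.18. The smallest difference among the members therefore did not come from a probe set near background.

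**Figure D1:**
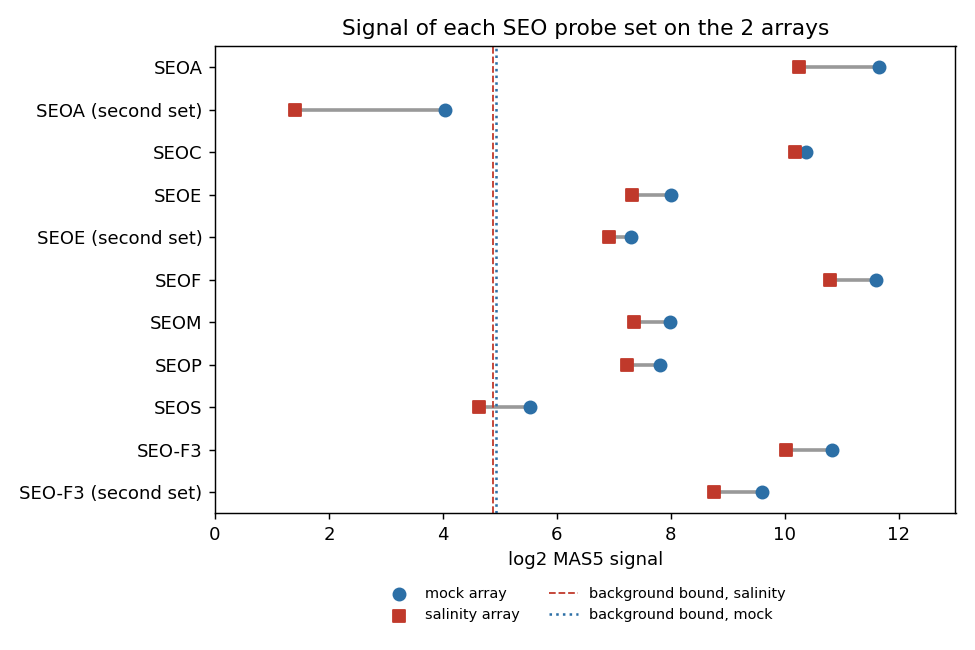
Log2 MAS5 signal (x axis) of each SEO probe set and of the SEO-F3 sets (rows), with a circle for the mock array, a square for the salinity array and vertical lines at the background bounds of 4.88 and 4.94. In every row the square lies to the left of the circle; the second SEOA set lies below both bounds, and SEOS crosses them.

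Signals of different probe sets cannot be set against each other, because probes differ in brightness, so the genes were ordered by their ratios. The step from SEOA to SEOF was 0.61 on the log2 scale and that from SEOP to SEOC was 0.39. The 3 steps among SEOF, SEOE, SEOM and SEOP were at most 0.12 each, and SEOS, known only as a limit, was left out. The only repeat measurement in these data is the second probe set of a gene. Over 1618 genes with a pair of probe sets measured on both arrays, the ratios within a pair differed with an SD of 0.42. The step below SEOA exceeded that spread, while the steps among the 4 genes in the middle, and the step to SEOC, did not. This spread covers probe effects and not plants, pools or arrays.

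The members were then set against all measured genes. All 7 lay below a log2 ratio of 0, where 50.2% of all genes lay. At least 2-fold lower was 1 of 7, beside 5.67% of all genes, and at least 2-fold higher was none, beside 5.02%. At a rule of at least 1.5-fold lower, chosen after the values were seen, it was 5 of 7 beside 14.7%. The genes belong to 1 family measured on 1 pair of arrays, so they are not independent observations of the treatment, and nothing particular to the family was tested.

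Each member was also placed among all genes. Of the 5892 measured genes, 136 (2.31%) had a ratio as low as that of SEOA or lower. The share was 9.18% for SEOF, 12.0% for SEOE, 13.1% for SEOM and 15.2% for SEOP, and it was 33.9% for SEOC. For SEOS, whose ratio is a limit, no share is given. Dim genes vary more on these arrays. Genes were split by mean signal into 3 equal groups, and the log2 ratios of genes that both arrays measured had an SD of 0.81 (dimmest group), 0.64 (middle) and 0.54 (brightest). SEOE, SEOM, SEOP and SEOS fell in the dimmest group, and the ratios of SEOE, SEOM and SEOP lay within 1 SD of 0. The limit for SEOS does not say on which side of 1 SD it lay. SEOA and SEOC fell in the middle group and SEOF in the brightest, and of these SEOA and SEOF lay more than 1 SD below 0.

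**Figure D2:**
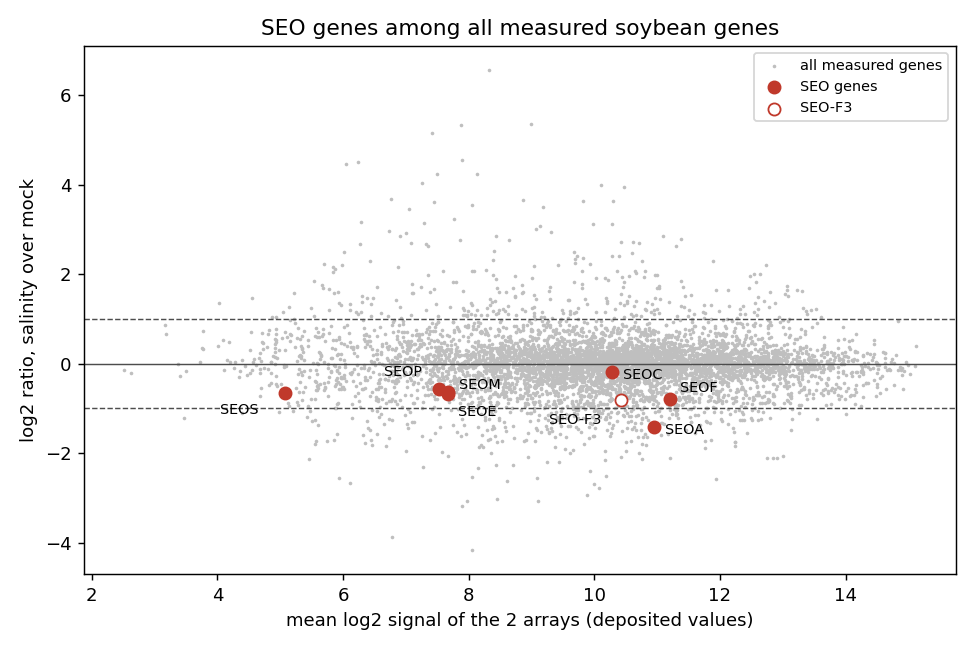
Log2 ratio of salinity over mock (y axis) against the mean log2 signal of both arrays (x axis) for all 5892 measured genes in grey, the 7 SEO genes as filled circles and SEO-F3 as an open circle; dashed lines mark 2-fold. The SEO genes all lie below 0 and SEOA alone lies below the lower dashed line.

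Other phloem and calcium genes were looked up by symbol. Sugar transporter and sucrose synthase genes, which move and use the sugar that the phloem carries, lay on both sides of 0. Of 11 measured, 4 lay below 0, beside 50.2% of all genes, with a median log2 ratio of 0.15. None was at least 2-fold lower, beside 5.67% of all genes, and 2 were at least 2-fold higher, beside 5.02%. SUT1, a sucrose transporter gene, was 5.52-fold higher, with log2 signals of 11.83 (salinity) and 9.36 (mock). Its 3 probe sets gave log2 ratios from 2.30 to 2.46. Of these, 2, the brightest included, carry a suffix that was counted as a mark of possible cross-hybridisation. SWEET29, of the SWEET sugar exporter family, was 2.27-fold higher, with log2 signals of 8.98 (salinity) and 7.80 (mock). By brightest sets, the lowest of the list was SWEET31 with a log2 ratio of -0.39. Another set of STP1 gave -0.55, beside -0.35 by its brightest, and another of SWEET17 gave 1.75, beside 0.32.

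Calcium genes were listed because forisomes respond to calcium. Of 10 measured genes, 5 lay below 0, near the 50.2% of all genes, with a median log2 ratio of 0.010. At least 2-fold lower were 2, beside 5.67% of all genes, and at least 2-fold higher was none, beside 5.02%. SCA1, a calcium-pumping ATPase gene, was 2.47-fold lower, with log2 signals of 11.15 (salinity) and 12.46 (mock). ANN11, an annexin gene, was 2.21-fold lower by its brightest set, which carries the same mark, but its 3 sets ranged from -1.15 to -0.10. By brightest sets, the highest of the list was the calmodulin gene SCAM-5 with a log2 ratio of 0.29, though its other set gave -0.11. A set of SCAM-3 reached 0.52. The lists for sieve element regulators and lectins, for callose synthesis and turnover and for xylem matched no symbol, so of the markers listed for sieve elements and companion cells only the SEO genes and SUT1 were measured here.

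Markers of other tissues were listed too. Of 9 photosynthesis genes, which mark green tissue, 8 lay below 0 by their brightest sets, beside 50.2% of all genes. Their median log2 ratio was -0.34, and FTRC, for a ferredoxin-thioredoxin reductase subunit, was 2.11-fold lower. RCABETA, for Rubisco activase, was highest at 0.20 by brightest sets. Sets of PSAD ranged from -1.03 to 0.17 and those of CAB3 from -0.42 to 0.26. The brightest sets of PETC, CAB3 and RCABETA carry the suffix s, which marks possible cross-hybridisation. Those of RCA14 and PSAD carry the suffix a, which stands for several transcripts of the same gene. Of 9 seed storage genes, 2 were measured, BG7S-1 with a log2 ratio of 0.55 and GY2 with 0.11. Of 14 nodule genes, 4 were measured, with ENOD55-2 3.40-fold lower and N-36A 2.34-fold higher by a set marked for cross-hybridisation. The 8 reference genes had a median of 0.020, from -0.25 (SUBI-1) to 0.41 (EF1BGAMMA4) by their brightest sets. Other sets of these genes reached 0.49 for SUBI-1 and -1.05 for EF1BGAMMA4. Probe sets for soybean ribosomal RNA had a median log2 ratio of 0.85 over the 42 measured. The part that green tissue markers and ribosomal RNA had in the SEO result was not tested. In RNA of whole tissue, fewer sieve elements and less SEO RNA in each cannot be told apart.

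**Figure D3:**
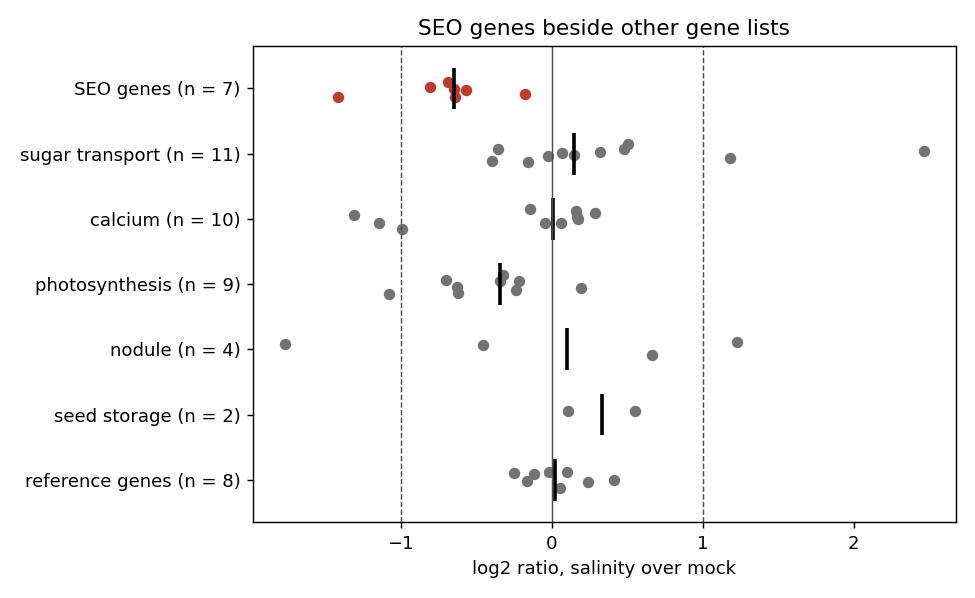
Log2 ratio of salinity over mock (x axis) of each measured gene (points) in the SEO genes and 6 other lists, with a black bar at the median of each list and dashed lines at 2-fold. The SEO genes lie left of 0 with a median of -0.65, the photosynthesis genes are next at -0.34, and the other medians lie at or above 0.

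Under 8 other settings of scaling, background bound and choice of probe set, each SEO gene that was measured stayed below 0. Not every setting could change every member. Leaving out probe sets marked for cross-hybridisation changed none, because no SEO set carries that mark. The other bounds changed SEOS alone, and the mean over probe sets changed SEOE alone. The median of the members ranged from -0.69 to -0.61. SEOA ranged from -1.43 to -1.41, and SEOS, with the bound at the 90th percentile, reached -0.90, while with the bound at the 99th percentile it was no longer measured. The settings cover the processing of these 2 arrays and add no replicate.

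**Figure D4:**
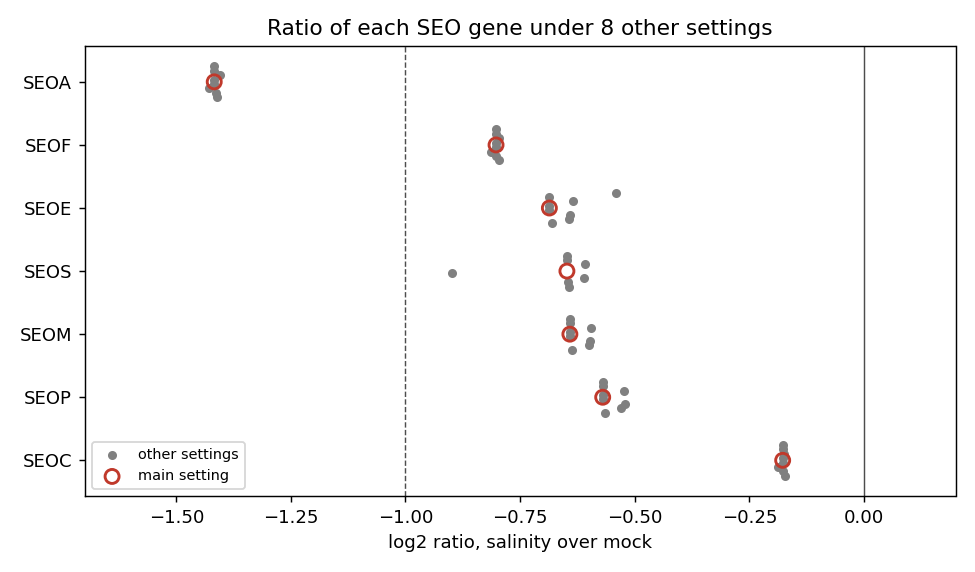
Log2 ratio of salinity over mock (x axis) of each SEO gene (rows) under the main setting (open red circles) and 8 other settings (grey points), with a dashed line at 2-fold lower. SEOA lies left of the dashed line and the other genes right of it under every setting that measured them.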

How the data were processed

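The deposited values are MAS5 signals on a log2 scale, per the submitters' processing notes, with no version; what else was done is not given in the sources used here. On the unlogged scale, the 2% trimmed mean was 498.7 (salinity) and 498.4 (mock), so both arrays stood at a common level. The table held 61035 probe sets, 37593 for soybean and 15820 and 7530 for Phytophthora sojae and soybean cyst nematode, whose 95th percentile on each array was the background bound. Signals below it were raised to it, and the deposited scaling was kept. Above the bound were 87.8% (salinity) and 87.5% (mock) of soybean probe sets. Precision is limited by the number of arrays.

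Gene names came from the platform annotation and, through the gene identifier, RefSeq's gene table (assembly Glycine_max_v4.0), which served for names and gene order. Of the soybean probe sets, 8677 had 1 gene, 370 had several and 28546 had none named here. Of 6031 genes, 6010 were found in the RefSeq table. Probe sets with the suffix a, s or x were counted together as marked for cross-hybridisation, although a stands for several transcripts of the same gene. The setting that omits marked sets left out all of these. No probe set of the SEO genes carries such a suffix. No test was possible with 1 array per group, so a difference was called by size, at 2-fold or more. The members and lists were chosen with earlier results of these data known. Lists were matched by symbol, and 3 matching symbols were dropped after their values were seen, CGS2 and LBD23, which stand for other proteins, and CP3, whose meaning was unsure. Named from each list are its highest and lowest gene and any gene that differed at least 2-fold. Scripts were tested on simulated data, with genes above the bound on both arrays. Those genes had brighter mock signals than SEOM, SEOP and SEOS, so limits set by the bound were not covered. Python 3.11.15, pandas 2.3.3, NumPy 2.4.6, statsmodels 0.14.6 and matplotlib 3.10.9 were used.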

Additional observations from a re-analysis of the deposited data

Results flagged for a closer look

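Probe sets for soybean ribosomal RNA, which lie outside the gene comparison, gave a signal that was mostly brighter on the salinity array. Of 48 such sets, 42 lay above the bound on at least 1 array, 38 of these were higher on the salinity array and 18 at least 2-fold, and their median log2 ratio was 0.85. The direction is opposite to that of the SEO genes, and the part of ribosomal RNA in their values was not tested.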

How the results depend on the processing

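The settings tried were median centring, quantile normalization, loess (a span of 0.3), a bound at the 90th or at the 99th percentile, a pseudocount of 16 in place of the floor, omission of probe sets marked for possible cross-hybridisation, and the mean over a gene's measured probe sets. Under these 8, the count of SEO genes at least 2-fold lower was 1. The count over all genes at that rule ranged from 307 to 338, beside 334 in the main setting. All measured SEO genes lay below 0, 6 of them with the bound at the 99th percentile, where SEOS was not measured. In the main setting 50.2% of all genes lay below 0. Leaving out marked probe sets could change no member, the other bounds only SEOS, and the mean over probe sets only SEOE. The median of the SEO genes ranged from -0.69 to -0.61, and that of all genes from -0.0046 to 0.0077. The sugar transport median ranged from 0.11 to 0.17 and the calcium median from 0.010 to 0.069. The count of members moved with the size rule, chosen after seeing the data: 5 were at least 1.5-fold lower, beside 14.7% of all genes. As no replicate exists, a ratio or median counted as moved between settings when it changed by more than 0.30 on the log2 scale. That is the SD of 1 probe set's ratio about its gene's. A count of genes was taken as moved when it changed by more than 1.5-fold. Steps between genes were read against the SD of a difference between a pair of sets, 0.42. Settings for the callose and sieve element regulator lists were not run because the lists matched no gene. No paired analysis was possible because each group has 1 array.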
